A study of Mus musculus with 12 samples.

Results

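Cells without p53 were compared with cells without Dux after the same dose of doxorubicin. The comparison rests on 4 of the 12 samples of the series, 2 from each knockout, and they were picked by genotype and treatment alone. All samples are E14 mouse embryonic stem cells, pluripotent cells grown on gelatin with serum, LIF and the 2i inhibitors PD0325901 (against MEK) and CHIR99021 (against GSK3). The p53 KO group holds p53 KO lines #1 and #2 and the Dux KO group holds Dux KO lines #1 and #2, each given 1 uM doxorubicin for 6 h and then drug-free medium. Matching DMSO vehicle samples of the same lines, and wild-type (WT) cells with drug or vehicle, serve here as reference levels. Each knockout is represented by 2 lines, so the spread within a group also holds the difference between lines. The labels give neither the kind of edit nor the time in drug-free medium. The p-values rest on a spread pooled over all 6 groups. Pairs of WT libraries enter it, with a median absolute log2 difference of 0.14 with drug and 0.11 with vehicle. The p53 KO lines differed more (0.28 and 0.22), so the p-values may understate the spread between lines. They measure nothing beyond these samples.

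Doxorubicin traps topoisomerase II on cut DNA. The breaks stabilise p53, a transcription factor that binds paired decamer sites and switches on genes of cell-cycle arrest, cell death, repair and its own negative feedback, above all Mdm2. Dux is a transcription factor of the 2-cell embryo that switches on Zscan4 and other multicopy genes, and in damaged embryonic stem cells it acts downstream of p53. Both knockouts interrupt that response, whereas p53 was targeted in only 1 of the groups.

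The p53 sites themselves are shown first, because they are the sequences through which p53 is known to act on its targets. In RefSeq promoter windows of build GRCm38.p6 (250 bases before to 50 after each gene's start), both strands were searched for 2 p53 consensus decamers at most 1 base apart, with at most 1 mismatch over 20 bases and none in the core C and G. Capitals mark the 2 decamers, lower-case letters mark 4 flanking bases and any base between the decamers, and coordinates cover the decamers with that base.
Cdkn1a, chr17:29090928-29090947, plus strand: tcagGAACATGTCTTGACATGTTCagcc
Ccng1, chr11:40755462-40755481, minus strand: ggccAGACCTGCCCGGGCAAGCCTtggc
Rps27l, chr9:66946296-66946315, plus strand: tggcGGGCTTGTTGAGACTTGTCCgggc
1700007K13Rik, chr2:28466285-28466305, minus strand: gcacAGACTTGATCtGGGCTAGTTTcctg
Gm29797, chr2:181656744-181656763, plus strand: ttccAGACTTGCTGGGGCAAGTCTggct
Mthfd1, chr12:76255090-76255109, plus strand: acgcAAACTTGCTCAGACAGGCCCattc
Ppfibp2, chr7:107606831-107606851, plus strand: taaaGCACTTGCCCaGAGCTTGCCCaagc
Sptbn4, chr7:27396234-27396253, minus strand: agggGAGCTAGCCTAGGCTAGTCTgcat
Calhm2, chr19:47138451-47138470, minus strand: tggaGGGCAAGCCTAGGCAAGATCtcct

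Such a pair stood in 17 of the 16134 tested genes that have a window (0.105%). Of genes lower in p53 KO than in Dux KO cells after drug, 12 of 3188 held one (0.376%), against 1 of 3378 higher genes (0.0296%) and 4 of 9568 genes not called (0.0418%). The 12 are the first 8 printed above with Gtse1, which holds overlapping pairs, and 1600002D24Rik, D6Ertd527e and Gm15987. Calhm2 is the higher gene. Sptbn4 is the only called gene with an exact match, and its difference was small (33.0 against 57.4 CPM on average, log2 -0.80, adjusted p = 0.035). A match describes letters in a 300-base window and does not show binding. Of 66 members of the p53 lists with a window 3 held a pair.

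Libraries held 23270358 to 56795858 counts, with 50796507 and 51481793 in the Dux KO and 26838781 and 23270358 in the p53 KO libraries after drug. Levels below are CPM, a gene's counts relative to its library's total after adjustment for library composition, and a difference is log2 of p53 KO over Dux KO from edgeR's quasi-likelihood test, with p-values adjusted over all 28643 genes tested. Positive values are higher in p53 KO cells. An adjusted p under 0.05 is what calling a gene means here. The second Dux KO vehicle column repeats Dux KO drug library 1 in all 54532 genes and was left out, so 11 libraries entered the fit and the Dux KO vehicle level rests on 1 library. In a principal component analysis of the 4 drug-treated knockout libraries, the first component (76.9% of variance) separated the genotypes and the second (18.1%) separated the p53 KO lines. Median absolute log2 difference between lines was 0.28 in p53 KO and 0.12 in Dux KO cells after drug. Counts cover whole gene spans with introns and ignore strand, so the reads of overlapping genes cannot be told apart. Among genes named here this touches 1600002D24Rik, Apaf1, Axin2, Bax, Calhm2, Casp8, Ccdc190, Ccnd1, Cdkn1a, Cpt1c, Ddit3, Dnmt3l, Fas, Fdps, Fosl1, Gbx2, Gm15987, Gm21293, Idi1, Jun, Krt7, Lin28a, Mdm4, Mthfd1, Mthfd2, Ndn, Nelfa, Nnat, Nop56, Oasl1, Olfr56, Otx2, Parp1, Parp14, Pax6, Plk3, Polk, Pou5f1, Ppfibp2, Ptprv, Sesn2, Slc2a1, Sox1, Sox15, Sox2, Spry4, Sptbn4, Tap1, Tigar, Tkt, Trp73, Usp18 and Wnt6.

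The targeted genes were examined first. Trp53 RNA (ENSMUSG00000059552, chr11:69580359-69591873, mm10) stood at 95.5 and 42.6 CPM in p53 KO lines 1 and 2 after drug and at 135 and 136 CPM in the Dux KO lines. Line 2 was lowest, and the difference was not called (log2 -0.97, SE 0.36, adjusted p = 0.061). Vehicle-treated cells had 72.5 and 39.9 CPM in p53 KO and 243 CPM in the single usable Dux KO library. The kind of edit is not given, so the RNA level alone does not check the p53 KO label; the levels of p53 targets are given below. Duxf3, the annotated Dux gene (chr10:58229979-58232675, in an array of near-identical copies), had 0 counts in both Dux KO drug libraries. The p53 KO lines had 3.95 and 0.714 CPM, at least 41.9-fold higher against a floor of 3 counts per library (adjusted p = 0.0056), and WT cells reached 21.6 and 22.8 CPM with drug. Line 1 was above line 2, and both lay above the Dux KO libraries. Such floors, and the counting intervals given further on, hold no more than counting error, and they are too narrow if both mates of a read pair were counted.

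The 2 knockouts differed widely after drug. Of 28643 genes, 5233 were higher in p53 KO (18.3%) and 5333 lower (18.6%), together 36.9%, and the median log2 over all genes was 0.11. All counts of list members after drug are to be read against these shares. More than 2-fold differences made up 3217 of the higher and 3828 of the lower calls. In 69% of all tested genes the groups did not overlap, so separation of 2 lines from 2 lines is by itself no mark of a gene. The higher calls numbered 2738 without Dux KO drug library 1 and 2626 without library 2, and the lower calls 3529 and 3579. In vehicle-treated libraries of both p53 KO lines and of Dux KO line 1 alone, 510 genes were higher and 1003 lower (1.78% and 3.5%, together 5.28%). The vehicle test holds fewer libraries, so totals with and without drug are not directly comparable. Of the 5233 genes higher after drug, 356 were also higher under vehicle and 31 lower. Of the 5333 lower genes, 704 were also lower under vehicle and 47 higher. By sign alone, 78.02% of the higher and 70.22% of the lower genes differed in the same direction under vehicle. Their median log2 there was 0.43 and -0.37.

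**Figure D1:**
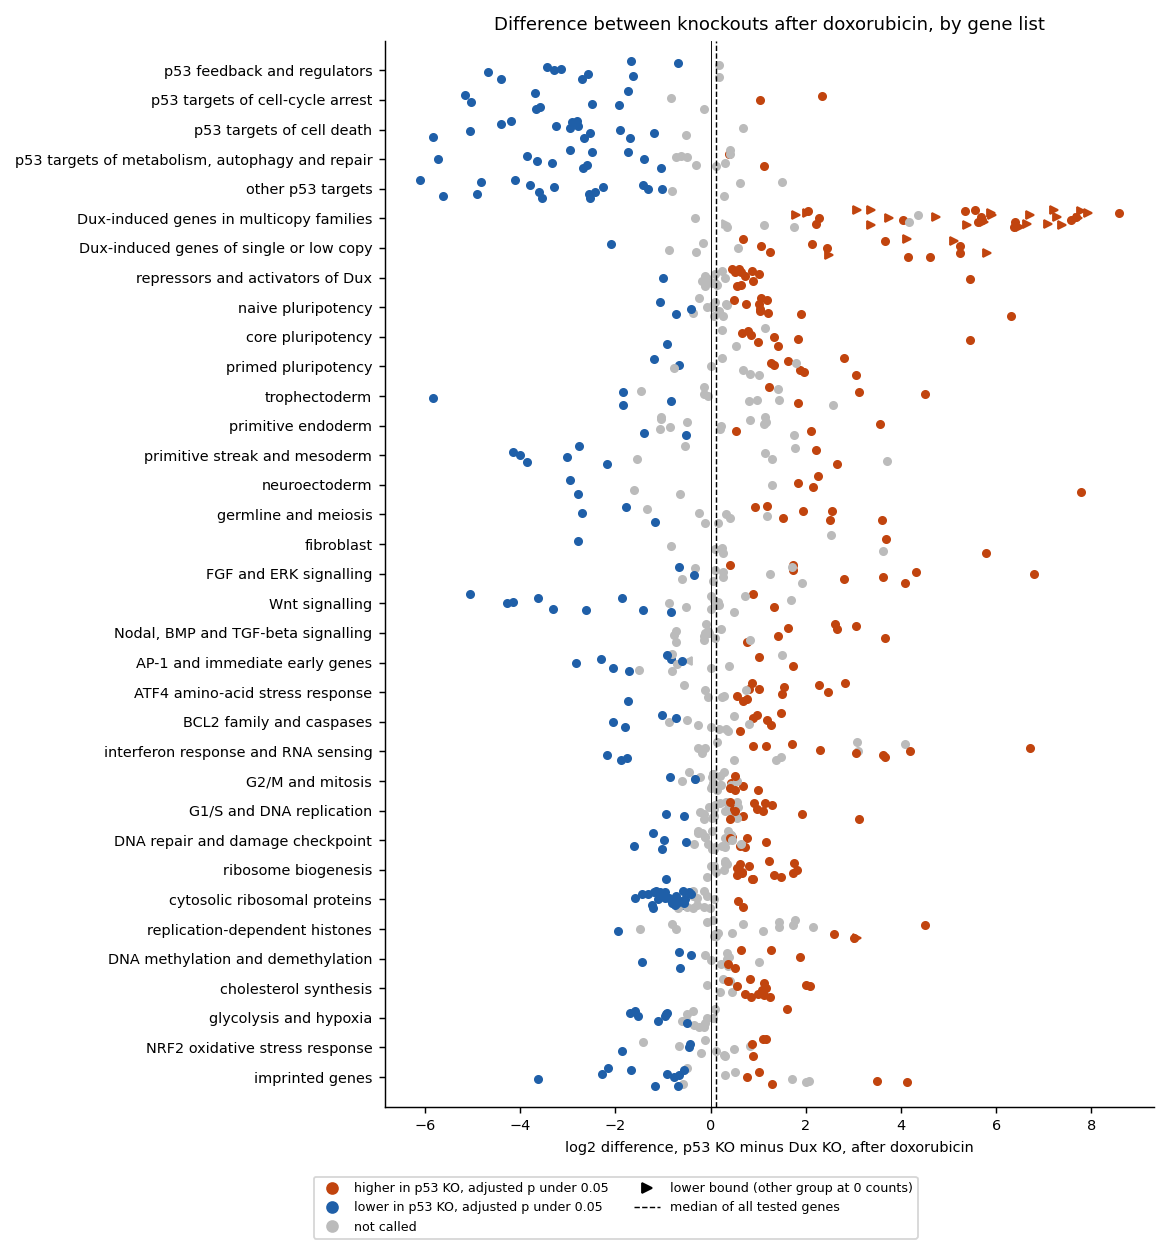
Log2 difference (p53 KO minus Dux KO, after doxorubicin, horizontal axis) of every tested member of 35 gene lists (rows); red and blue mark calls at adjusted p under 0.05, grey no call, triangles lower bounds where the other group had 0 counts, and the dashed line the median of all genes (0.11). The 5 p53 lists lie mostly to the left, with medians from -2.80 to -1.04, and the Dux-induced lists to the right.

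Genes that p53 switches on were far lower in p53 KO than in Dux KO cells. Across the 5 p53 lists, 59 of 81 tested members were lower, 4 higher and 18 not called, with a median log2 of -2.53 against 0.11 for all genes. RNA of a bulk sample was measured, so fewer cells with a transcript and less of it per cell cannot be told apart. In the feedback and regulator list 10 of 12 were lower and none higher (median log2 -2.64). Mdm2, the ubiquitin ligase that degrades p53 (ENSMUSG00000020184, chr10:117688875-117710758), stood at 69.8 and 52.4 CPM in p53 KO lines 1 and 2 and at 629.6 and 685 CPM in Dux KO lines (log2 -3.43, SE 0.16, adjusted p = 1.2e-05). The p53 KO lines sat near their vehicle level (44.7 and 49.2 CPM), whereas Dux KO cells had 109.8 CPM under vehicle and WT cells 949.9 and 947 CPM with drug.

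Ccng1, a cyclin in the p53 feedback loop, carries the decamer pair printed above. It stood at 78.5 and 16.2 CPM in p53 KO and 1024 and 967 CPM in Dux KO lines (log2 -4.39, SE 0.75, adjusted p = 0.0021), with line 1 of p53 KO well above line 2. Zmat3, an RNA-binding p53 effector, had 23.8 and 23.98 against 141 and 169.7 CPM (log2 -2.70, adjusted p = 1.3e-05), and here the p53 KO lines matched each other. Trp53inp1, a partner of p53 in autophagy and death, had 71.2 and 58.2 against 644 and 619.7 CPM (log2 -3.29, adjusted p = 1.3e-05). Trp73, the p53 family member p73, had 3.61 and 1.998 against 74.4 and 68.2 CPM (log2 -4.67, adjusted p = 2e-05). Mdm4, which inhibits p53 by binding it, had 65.8 and 80.9 against 487 and 389 CPM (log2 -2.58, adjusted p = 2.2e-05). Unlike Mdm2 it was not raised by drug in Dux KO cells (466 CPM under vehicle, log2 -0.09, adjusted p = 0.76 for the response) and fell in p53 KO cells (log2 -0.95, adjusted p = 0.0052).

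Among genes of cell-cycle arrest 8 of 12 were lower and 2 higher. Cdkn1a, the CDK inhibitor p21 (chr17:29090976-29100727), stood at 46.96 and 26.2 CPM in p53 KO lines and 214 and 200.5 CPM in Dux KO lines (log2 -2.50, SE 0.25, adjusted p = 0.00013). Its drug-treated p53 KO lines lay below their own vehicle level of 76.3 and 59.9 CPM (log2 -0.90, adjusted p = 0.033). Plk2, a polo-like kinase, had 30.3 and 7.78 against 242 and 247 CPM (log2 -3.68, adjusted p = 0.00089). It nevertheless rose with drug in p53 KO cells from 2.34 and 1.20 CPM (log2 3.44, adjusted p = 0.0065), and in Dux KO cells from 17.6 CPM (log2 3.80, adjusted p = 0.005). The knockouts also differed under vehicle (log2 -3.32, adjusted p = 0.025). Btg2, an antiproliferative deadenylase cofactor, had 34.96 and 14.5 against 306 and 327 CPM (log2 -3.68, adjusted p = 0.00093). Rprm, the G2 arrest gene Reprimo, had 0.347 and 0.214 against 10.1 and 8.45 CPM (log2 -5.03, adjusted p = 0.00031). The 2 higher members were Ccnd1, cyclin D1, at 87.95 and 98.5 against 18.7 and 18.3 CPM (log2 2.33, adjusted p = 6.4e-05), and Plk3 at 19.4 and 10.2 against 8.10 and 6.32 CPM (log2 1.04, adjusted p = 0.023); cyclin D1 drives cell-cycle entry.

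Of the death genes 14 of 16 were lower and none higher (median log2 -2.80). Fas, the death receptor, stood at 1.73 and 0.214 CPM in p53 KO lines and 56.2 and 55.1 CPM in Dux KO lines (log2 -5.82, adjusted p = 0.00019). Bbc3, which encodes the BH3-only protein Puma, had 3.88 and 1.93 against 53.2 and 54.1 CPM (log2 -4.20, adjusted p = 0.00017). Pmaip1, which encodes Noxa, had 34.96 and 10.4 against 227 and 207 CPM (log2 -3.26, adjusted p = 0.002), and Perp, a membrane protein of p53-driven apoptosis, 15.4 and 3.14 against 187 and 205 CPM (log2 -4.40, adjusted p = 0.0028). In each of these the lines of a knockout did not reach those of the other. Apaf1, the apoptosome scaffold, had 33.3 and 28.1 against 214 and 208 CPM (log2 -2.78, adjusted p = 1.1e-05). Bax, the mitochondrial pore former, differed least among the 14 (95.9 and 69.9 against 186 and 193 CPM, log2 -1.19, adjusted p = 0.00077).

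In the list of metabolism, autophagy and repair 11 of 21 were lower and 2 higher (median log2 -1.04). Tap1, a peptide transporter of antigen presentation, stood at 4.99 and 2.28 CPM in p53 KO lines and 194 and 194 CPM in Dux KO lines (log2 -5.74, adjusted p = 2.2e-05). Ddit4, the mTORC1 inhibitor REDD1, had 33.3 and 65.1 against 385 and 377 CPM (log2 -2.96, adjusted p = 9.5e-05), and it fell below its vehicle level of 169 and 167 CPM in p53 KO cells (log2 -1.77, adjusted p = 0.0044). Sesn2, another inhibitor of mTORC1, had 46.4 and 52.4 against 175 and 152 CPM (log2 -1.73, adjusted p = 6.1e-05). Cpt1c had 26.5 and 9.92 against 253 and 279 CPM, the phosphatidate phosphatase gene Lpin1 13.1 and 8.14 against 132 and 134 CPM, and the translesion polymerase gene Polk 15.1 and 8.28 against 123 and 113 CPM. All of these lay outside the range of the other genotype. No member was higher without p53 KO drug library 1 or without Dux KO drug library 1, and 4 members were without p53 KO drug library 2. The 2 higher with all libraries were Tigar, a brake on glycolysis, at 149.9 and 79 against 52.4 and 53.1 CPM (log2 1.12, adjusted p = 0.03), and the glutathione peroxidase gene Gpx1 at 279 and 285 against 191 and 238 CPM (log2 0.40, adjusted p = 0.04).

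Of 20 other p53 targets 16 were lower and none higher. Dcxr, a carbonyl reductase, stood at 4.44 and 1.28 CPM in p53 KO lines and 190.4 and 206 CPM in Dux KO lines (log2 -6.11, SE 0.49, adjusted p = 4.9e-05), the largest difference in the 5 lists. Zfp365, a guard of fragile sites, had 4.92 and 0.357 against 128 and 136 CPM (log2 -5.63, adjusted p = 0.001), and Sytl1 had 6.24 and 0.357 against 99.5 and 100.2 CPM (log2 -4.91, adjusted p = 0.0022). Lif, which encodes the cytokine that is also in the medium, had 3.88 and 1.64 against 15.4 and 16.7 CPM (log2 -2.53, adjusted p = 0.0013). Eda2r, a TNF receptor family member, had 8.43 and 0.107 against 125 and 119 CPM (log2 -4.83, adjusted p = 0.025); its adjusted p was 0.077 without Dux KO drug library 1 and 0.074 without library 2.

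**Figure D2:**
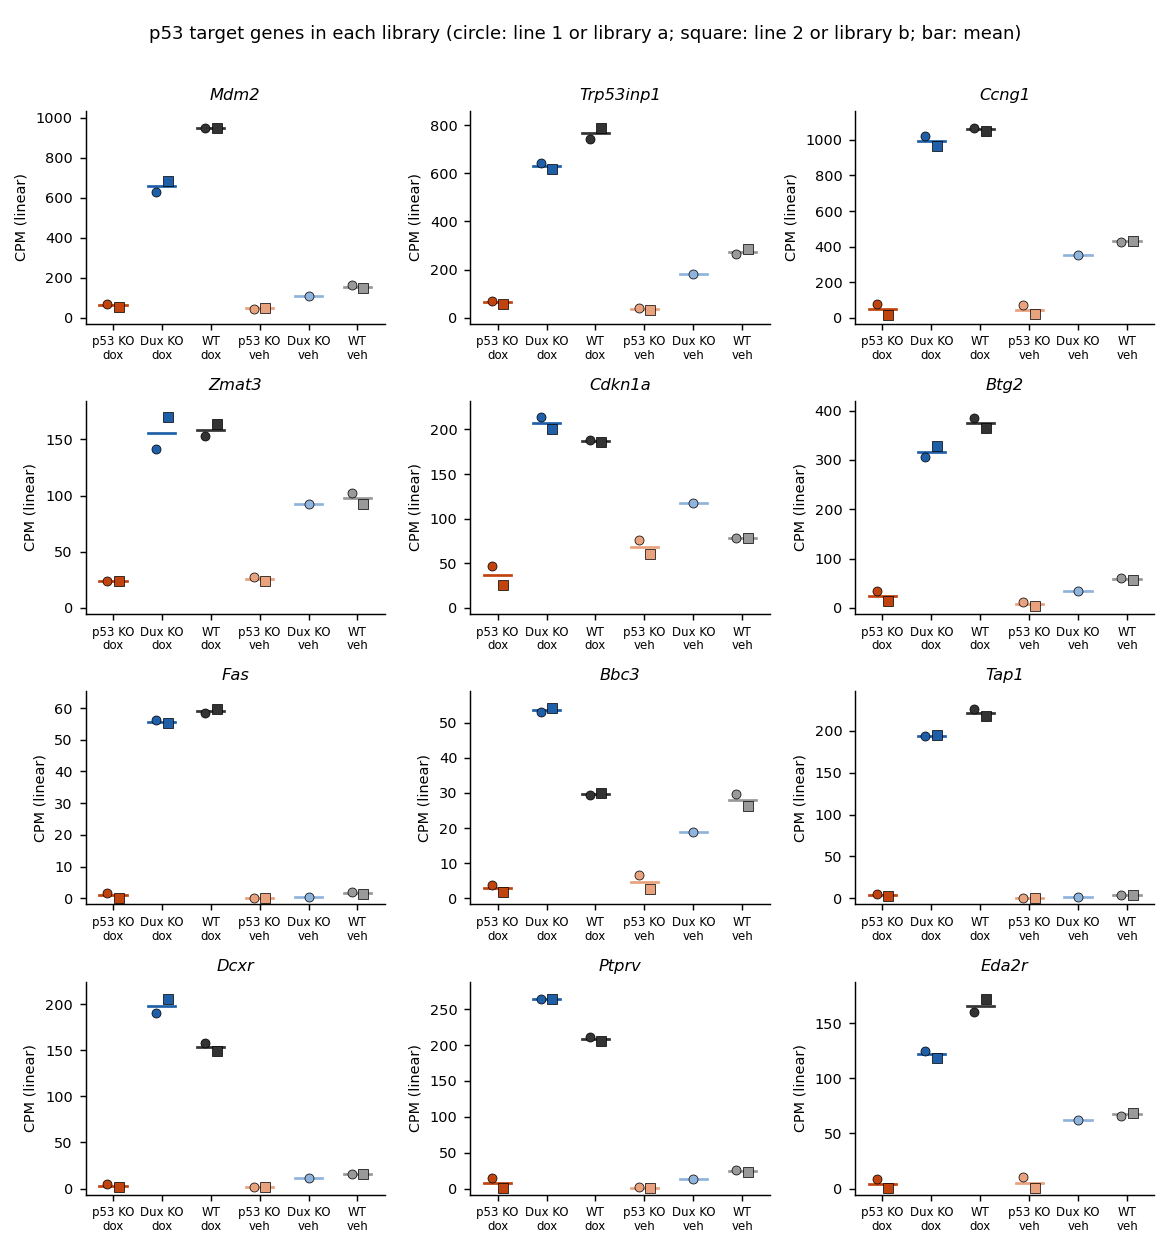
CPM (linear vertical axes) of 12 p53 targets in all 6 groups; circles are line 1 or WT library a, squares line 2 or WT library b, bars group means, and "veh" is vehicle. In the Mdm2 panel Dux KO cells with drug lie at 629.6 and 685 CPM and p53 KO cells with drug at 69.8 and 52.4 CPM, near their vehicle level.

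The p53 KO lines were not equal. Of the 81 tested members of the p53 lists 69 were higher in line 1 than in line 2 after drug (85.2%, against 52.1% of all tested genes), and 65 under vehicle. Ptprv had 14.2 and 0.571 CPM in lines 1 and 2, Phlda3 7.14 and 0.428 CPM and Perp 15.4 and 3.14 CPM. Even line 1 stayed far below the Dux KO lines, at 264 and 264 CPM for Ptprv and 125 and 128 CPM for Phlda3. Trp53 RNA was also higher in line 1 (95.5 and 42.6 CPM). Whether line 1 keeps some p53 activity was not tested.

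The log2 difference was lower after drug than under vehicle in 68 of the 81 tested members. Over all tested genes the median change of that difference was log2 0.09. In Dux KO cells 47 of the 81 rose with drug and 1 fell (background 14.5% and 11.9% of genes), with a median log2 of 1.47, and in WT cells 52 rose and 8 fell (median 1.22, background 29% and 23.4%). In p53 KO cells 11 rose and 6 fell (background 9.31% and 8.09%), with a median of 0.28. Drug and vehicle libraries of a number come from the same line, and these counts do not use that. With each knockout line as its own block, and the counts of the second Dux KO vehicle library recovered from FPKM, 25 rose and 12 fell in p53 KO cells (background 18.2% and 12.6%, median 0.27) and 58 rose and 8 fell in Dux KO cells (background 24.4% and 24.2%, median 1.36). Perp rose in both p53 KO lines, from 8.33 and 1.47 CPM under vehicle, in that fit alone (log2 0.97, adjusted p = 0.016, against 0.41 without the block), and so did Btg2, from 12.65 and 3.73 CPM (log2 1.69, adjusted p = 0.00098, against 0.061).

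Under vehicle 24 of the 81 were already lower in p53 KO and 1 was higher, with a median log2 of -0.89. The difference in drug response, p53 KO minus Dux KO, was lower for 25 and higher for 1 (background 4.80% and 2.89%). With the block these counts were 55 and 5, where 11% of all genes were lower and 11.3% higher. For Mdm2 the difference in response was log2 -2.20, SE 0.24, adjusted p = 0.0029. For Ccng1 it was log2 -1.45, adjusted p = 0.46 without the block and log2 -1.44, adjusted p = 0.001 with it, and for Bax log2 -1.04, adjusted p = 0.047 without and log2 -0.65, adjusted p = 0.063 with the block.

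**Figure D3:**
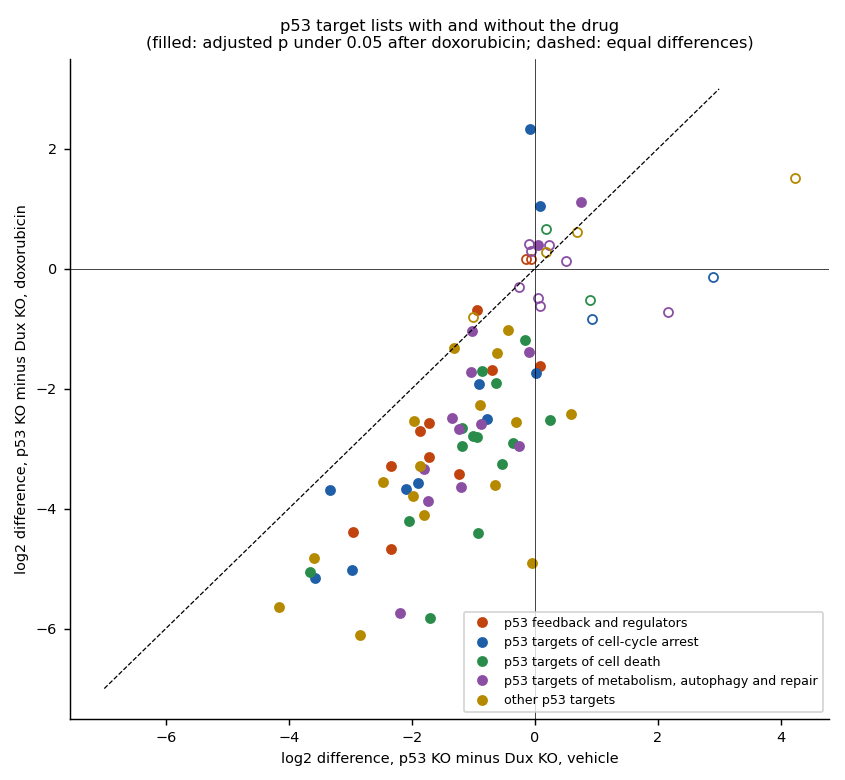
Log2 difference between p53 KO and Dux KO under vehicle (horizontal) and after doxorubicin (vertical) for the 81 tested members of the 5 p53 lists, coloured by list; filled points were called after drug and the dashed line marks equal differences. Of the 81 points 68 lie below the line.

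The genes furthest above in p53 KO cells were ones that drug induced in WT cells and that had 0 counts in both Dux KO drug libraries. The 12 largest higher calls were taken among protein-coding genes of at least 5 CPM that stayed called without each library. They were Zscan4c, Zscan4d, Zscan4e and Zscan4f of the Dux lists and 8 genes with Gm names. Zscan4c (ENSMUSG00000054272, chr7:11005745-11010547), a marker of the 2-cell-like state, stood at 18.7 and 5.78 CPM in p53 KO lines, at least 220-fold higher (adjusted p = 0.00014). WT cells with drug reached 449 and 543 CPM, far above the p53 KO lines. Zscan4d had 18.1 and 5.21 CPM, at least 210-fold higher, Zscan4f 21.2 and 6.03 CPM, at least 244-fold, and Gm21293 23.2 and 7.35 CPM, at least 275-fold. In each line 1 was above line 2. The reads of near-identical copies may be shared among them, so single members are uncertain and the family is the firmer unit.

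In the list of Dux-induced multicopy genes 35 of 43 tested members were higher and none lower, with a median log2 of 5.39 when groups at 0 are set to the floor. Summed over the list the levels were 514 and 155 CPM in p53 KO lines after drug, 143 and 137 CPM in Dux KO lines, and 4926 and 5866 CPM in WT cells. The sum of p53 KO line 2 was thus close to the Dux KO sums. Those sums include members present in Dux KO cells without drug (107 CPM under vehicle), and they hide members that were absent there. Zscan4c, for example, had 162 counts in p53 KO line 2 and 0 in both Dux KO libraries after drug. With no filter, limma on log2(FPKM + 1) called 23 of the 43 higher. Genes of single or low copy were higher in 14 and lower in 1 of 19 (median log2 2.45, or 1.46 without p53 KO drug library 1). limma on log2(FPKM + 1) called 8 of 16 higher, or 6 of 19 with no filter. Zfp352, a retrotransposed zinc finger gene of the 2-cell stage, had 2.64 and 1.21 CPM against 0, at least 34.6-fold higher, and Ubtfl1 5.55 and 0.714 CPM against 0, at least 56.3-fold higher. Sox15 was the lower member (6.31 and 5.32 against 28.7 and 21.01 CPM, log2 -2.09, adjusted p = 0.00025).

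The multicopy genes differed without drug too. Zscan4c stood at 9.61 and 8.82 CPM in vehicle-treated p53 KO lines, above the WT vehicle level of 1.17 and 1.50 CPM, and at 0 in the Dux KO vehicle library. Under vehicle 18 of the 43 multicopy genes were higher in p53 KO (background 1.78%) and none lower. With drug 38 of the 43 rose in WT cells (background 29%) and none in Dux KO cells (background 14.5%). In p53 KO cells 4 rose, the share seen over all genes (9.31%), and 10 with each line as a block (background 18.2%). The difference in drug response was higher for 2 of 43 (background 2.89%) and for 3 with the block (background 11.3%), and lower for none.

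**Figure D4:**
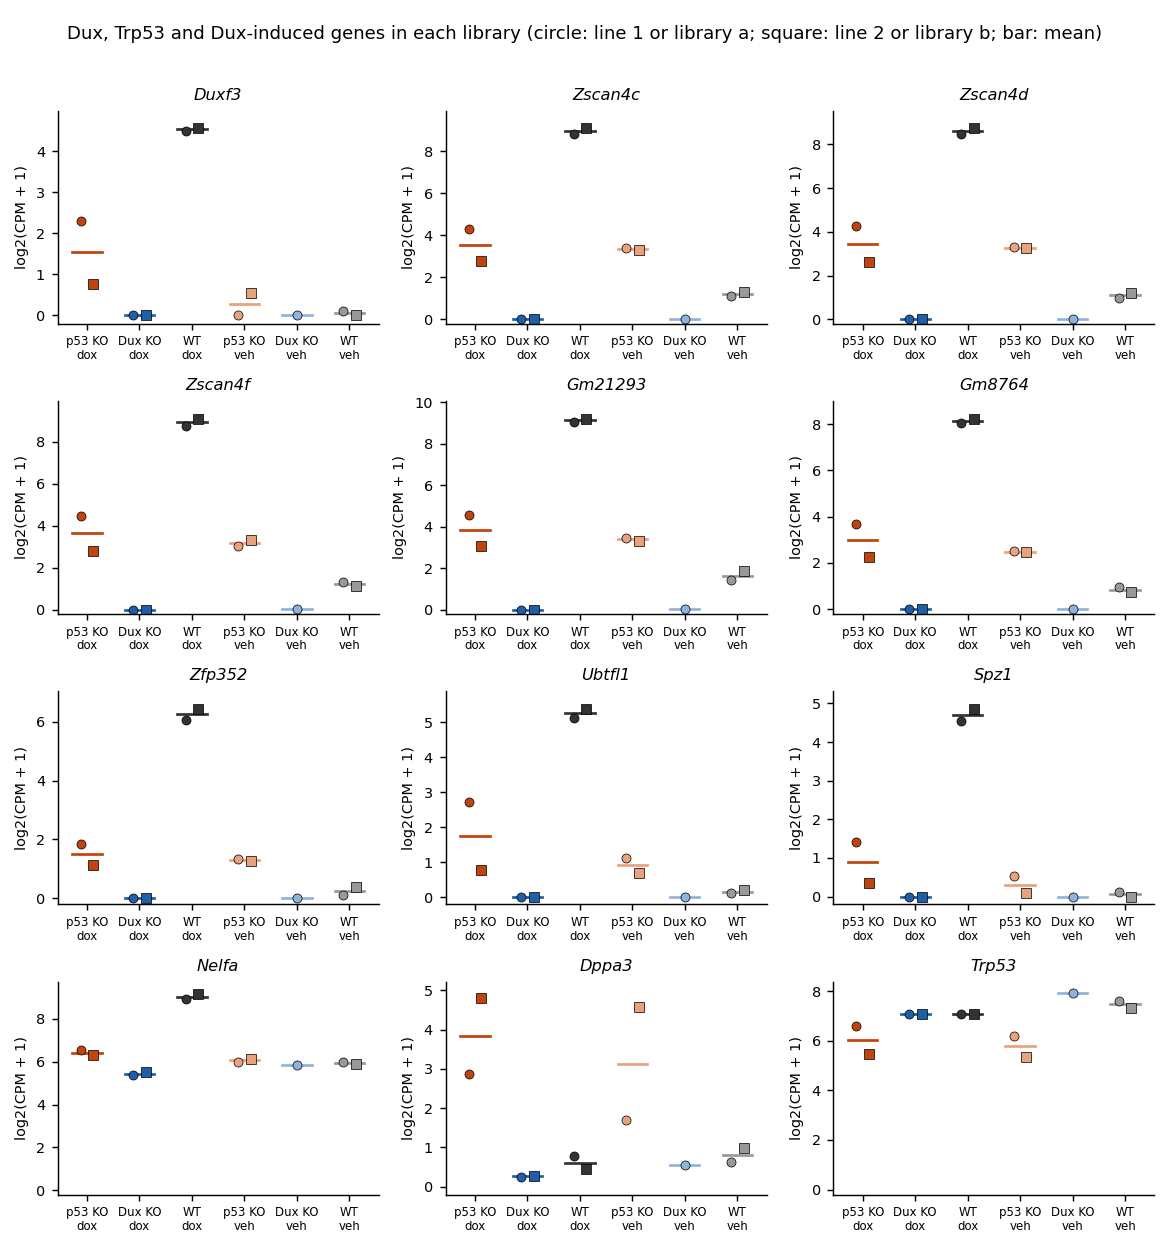
log2(CPM + 1) of Duxf3, Trp53 and 10 further genes in all 6 groups. Circles are line 1 or WT library a, squares line 2 or WT library b, bars group means. Zscan4c lies at 18.7 and 5.78 CPM in p53 KO with drug, at 0 in both Dux KO drug libraries, and at 449 and 543 CPM in WT with drug.

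Of 22 known repressors and activators of Dux 11 were higher, 1 was lower and 10 were not called (median log2 0.37). Without Dux KO drug library 1 the higher count was 5. Nelfa, an activator of the 2-cell-like state, had 91.5 and 78.9 against 40.1 and 44.3 CPM (log2 1.01, adjusted p = 0.00069). In WT cells Nelfa itself rose with drug, from 1628 and 1558 counts to 14916 and 17447 counts. Its response was log2 0.37 in p53 KO and log2 -0.43 in Dux KO cells. Whether its difference lies upstream or downstream of Dux was not tested. Pcgf6, a Polycomb subunit, had 70.5 and 68.9 against 39.4 and 35.97 CPM (log2 0.89, adjusted p = 0.00058).

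Lin28a, in that list and in the core pluripotency list, differed most. This RNA-binding protein of pluripotent cells, which blocks let-7 maturation (ENSMUSG00000050966, chr4:134003330-134018841), had 112 and 148 CPM in p53 KO lines and 2.53 and 3.42 CPM in Dux KO lines after drug (log2 5.45, SE 0.26, adjusted p = 1.2e-05). WT cells with drug had 26.6 and 37.02 CPM, between the knockouts. Vehicle levels were 76.5 and 75.2 CPM in p53 KO, 107 and 90.2 CPM in WT and 32.3 CPM in Dux KO cells, so Dux KO was already lower without drug (log2 1.23, adjusted p = 0.038). Drug lowered it in Dux KO cells (log2 -3.44, adjusted p = 0.00014) and raised it in p53 KO cells (log2 0.78, adjusted p = 0.036), and the responses differed (log2 4.21, SE 0.34, adjusted p = 0.0022).

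The largest lower calls outside the p53 lists were genes nearly silent in p53 KO cells. Rgs14, a regulator of G-protein signalling (chr13:55369732-55384687), had 0.832 and 0.357 CPM in p53 KO lines and 101 and 124 CPM in Dux KO lines (log2 -7.55, SE 0.46, adjusted p = 2.2e-05). With vehicle every group was at or under 1.65 CPM, and WT cells reached 144 and 137 CPM with drug. Casp14, the caspase of skin cornification, had 0.208 and 0 against 76.2 and 55.3 CPM (log2 -9.24, adjusted p = 3.5e-05). Pla2g2f, a secreted phospholipase, had 0.694 and 0.999 against 117 and 118 CPM (log2 -7.11, adjusted p = 1.1e-05), and Krt15, a basal keratin, 0.382 and 0.0714 against 36.5 and 52.4 CPM (log2 -7.58, adjusted p = 3.7e-05).

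A cluster of neighbouring genes was also lower. Ces2b, Ces2e, Ces2f and Ces2g, carboxylesterase genes between chr8:104831572-104840093 and chr8:104961718-104969537, were all among the 12 largest lower calls. Ces2g had 2 counts in each p53 KO drug library and 37.2 and 71.3 CPM in Dux KO lines (log2 -9.52, SE 0.61, adjusted p = 3.7e-05). Ces2f had 0.278 and 0 against 49.1 and 84.2 CPM, and WT cells 120.1 and 116 CPM. Ces2e rested on 2 counts in p53 KO cells, a ratio of 736 with a 95% counting interval of 204 to 6080, and Ces2b on 2 counts, a ratio of 227 (62.5 to 1870). The copies are related in sequence, so their split of reads is uncertain. Line 2 of Dux KO exceeded line 1 in each of the 4.

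Cbln2, a synaptic organiser, had 0 counts in all p53 KO libraries and 11.2 and 10.7 CPM in Dux KO lines after drug, at least 104-fold lower in p53 KO (adjusted p = 0.00011). Astl, the egg protease ovastacin, had 0 counts in p53 KO drug libraries against 5.66 and 6.88 CPM, at least 59.4-fold lower (adjusted p = 9.4e-05). Tekt4, a ciliary protein gene, rested on 2 counts against 3.66 and 8.39 CPM, a ratio of 173 (47.6 to 1430). Gm5737 had 0.139 and 0.0714 against 14.1 and 18.4 CPM (log2 -7.22, adjusted p = 1.3e-05). The 12 largest lower genes, chosen by the same rule as the higher ones, all rose with drug in WT cells (background 29%). None of the 7 with a promoter window held a p53 decamer pair. Only 0.376% of all lower genes with a window held one, so finding none in 7 cannot tell these genes from others.

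Pluripotency genes were more often higher in p53 KO than in Dux KO cells. These are the defining markers of the labelled cell type, and Pou5f1, Sox2 and Nanog were present in every library. In the core list 8 of 12 were higher and 1 lower (median log2 0.92, against 0.11 for all genes). Pou5f1, which encodes Oct4, had 696 and 599 CPM in p53 KO lines and 358 and 295 CPM in Dux KO lines (log2 0.99, SE 0.13, adjusted p = 0.00059), and WT cells with drug had 156 and 145 CPM. Utf1, a chromatin factor of embryonic stem cells, had 43.4 and 38.7 against 11.8 and 11 CPM (log2 1.84, adjusted p = 5.4e-05), and the TGF-beta family gene Gdf3 144 and 83.9 against 44.2 and 41.8 CPM (log2 1.41, adjusted p = 0.0051). Sox2 was the lower member (127 and 158 against 284 and 255 CPM, log2 -0.92, adjusted p = 0.0079), and its adjusted p was 0.055 without Dux KO drug library 1.

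Nanog had 591 and 350.1 against 359.5 and 394 CPM, overlapping groups and no call (log2 0.32, SE 0.24, adjusted p = 0.33). Without p53 KO drug library 1 its log2 was -0.10, and without library 2 it was called at 0.66 (adjusted p = 0.026). In the naive list 10 of 24 were higher and 3 lower; without Dux KO drug library 2 these counts were 6 and 0, and the lower count was also 0 without p53 KO drug library 2 or Dux KO drug library 1. Dppa3, the maternal factor Stella, had 6.31 and 26.8 against 0.189 and 0.218 CPM (log2 6.32, adjusted p = 0.0035), with line 2 far above line 1 as under vehicle (2.27 and 22.7 CPM). Tcl1, an Akt cofactor, had 49.6 and 69.4 against 16.9 and 15.1 CPM (log2 1.89, adjusted p = 0.0013), and Gbx2 8.01 and 6.82 against 3.605 and 2.84 CPM (log2 1.20, adjusted p = 0.004). Klf4 (71.03 and 56.2 against 100.4 and 109 CPM, log2 -0.72, adjusted p = 0.018) and Klf5 (86.5 and 50.6 against 126 and 159.8 CPM, log2 -1.06, adjusted p = 0.023) were lower.

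Primed-state genes were higher in 7 and lower in 2 of 16 (4 higher without Dux KO drug library 2). Otx2, a driver of exit from the naive state, had 11.8 and 34.4 against 2.38 and 3.13 CPM (log2 3.06, adjusted p = 0.0041), and Dnmt3l, a cofactor of de novo DNA methylation, 148 and 111 against 21.4 and 49.04 CPM (log2 1.88, adjusted p = 0.0026). Otx2 fell with drug in WT (log2 -3.71, adjusted p = 0.0014) and Dux KO cells (log2 -2.29, adjusted p = 0.031), and its p53 KO lines lay at 6.29 and 16.7 CPM under vehicle. The germline list had 7 of 17 higher and 3 lower, and the higher count was 3 without p53 KO drug library 2 or Dux KO drug library 1. The germline members were mostly highest in p53 KO line 2. Line 1 lay above line 2 in 2 of the 17 after drug (11.8%, against 52.1% of all tested genes) and in 2 under vehicle. Among the 7 higher members this held for 1. Hormad1, a meiotic axis protein gene, went against most called members and was lower. It had 16.6 and 26.2 against 131 and 147 CPM (log2 -2.70, adjusted p = 0.00034).

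Markers of differentiated lineages are read against the all-gene shares of 18.3% higher and 18.6% lower. In the primitive streak and mesoderm list 6 of 14 were lower and 2 higher. The median log2 was -1.05, and it was -1.65 without p53 KO drug library 1 and -0.44 without library 2. None was higher without p53 KO drug library 1 or Dux KO drug library 1, and 4 were without p53 KO drug library 2. Mesp1 had 0.278 and 0.428 against 4.59 and 6.79 CPM (adjusted p = 0.00025), its neighbour Mesp2 1.11 and 0.571 against 12.4 and 12.2 CPM (log2 -3.86, adjusted p = 0.00027), and T, the mesodermal factor Brachyury, 0.208 and 0.571 against 4.001 and 2.29 CPM (log2 -3.01, adjusted p = 0.0029). These levels are low even in Dux KO cells, and WT cells with drug had 5.05 and 6.18 CPM for Mesp1. The list's summed level was 30.7 and 13.1 CPM in p53 KO and 66.8 and 79.1 CPM in Dux KO lines.

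Trophectoderm markers were split, 4 higher and 4 lower of 17, close to the all-gene shares, and 1 or 2 higher without Dux KO drug library 1 or 2. Krt7, a simple-epithelial keratin (chr15:101411043-101430313), had 1.46 and 2.14 CPM in p53 KO and 82.5 and 123 CPM in Dux KO lines (log2 -5.83, SE 0.36, adjusted p = 2.2e-05), and it rose with drug in Dux KO (log2 5.51, adjusted p = 0.0002) and WT cells (log2 5.15, adjusted p = 1.2e-05), with log2 0.28, adjusted p = 0.63 in p53 KO cells. Gata2 went the other way, 12.3 and 25.4 against 0.528 and 1.13 CPM (log2 4.50, adjusted p = 0.00031). The defining factor Cdx2 stayed under 1 CPM in all libraries. Of the neuroectoderm list 4 of 9 were higher and 2 lower. Pax6, an eye and brain factor, had 11.1 and 6.67 CPM against 2 counts in each Dux KO library (log2 7.77, adjusted p = 0.00021), while Sox1 was lower at 1.46 and 0.928 against 11.2 and 7.25 CPM (log2 -2.95, adjusted p = 0.0029). Primitive endoderm had 3 higher and 2 lower of 17 (1 higher without p53 KO drug library 1 or either Dux KO drug library; 0 lower without Dux KO drug library 2), and fibroblast markers 2 and 1 of 9, with Dcn, Lum and Postn too low to test; neither list stood apart from the all-gene shares by its counts. The part of any shift in cell types in these results was not tested.

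Signalling lists differed in direction. Wnt genes were lower in 9 of 22 and higher in 2. Wnt3, the ligand that starts the primitive streak (chr11:103774150-103817957), had 2.57 and 1.21 CPM in p53 KO and 30.2 and 37.5 CPM in Dux KO lines (log2 -4.16, SE 0.43, adjusted p = 0.00017), from 0.512 and 0.999 CPM in p53 KO and 0.194 CPM in Dux KO cells under vehicle. Wnt6 had 1.94 and 0.5 against 19.5 and 27.8 CPM (log2 -4.27, adjusted p = 0.00075), Wnt9a 3.12 and 1.07 against 22.8 and 29.2 CPM (log2 -3.63, adjusted p = 0.0013), and Wnt10a 0.832 and 0.0714 against 16.5 and 13.96 CPM (log2 -5.06, adjusted p = 0.002). Axin2 and Sp5, targets of the pathway in cells whose GSK3 is inhibited by the medium, were not called (log2 0.49 and 0.18).

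FGF and ERK genes were higher in 8 of 19 and lower in 2 (median log2 1.25). Without p53 KO drug library 1 the median was 0.42, and without Dux KO drug library 2 it was 0.73 with 5 higher; limma on log2 FPKM called 2 of 9 higher, or 5 of 19 with no filter. Etv1, an ETS factor induced by FGF, had 6.94 and 10.2 CPM in p53 KO lines and 0.453 and 0.401 CPM in Dux KO lines (log2 4.32, SE 0.38, adjusted p = 7.4e-05). Drug lowered Etv1 in Dux KO cells from 15.1 CPM, and in WT cells to 0.965 and 1.73 CPM from 11.6 and 10.1 CPM, while p53 KO cells had 6.36 and 8.59 CPM under vehicle (log2 0.20, adjusted p = 0.7 for the response). The ERK phosphatase genes Dusp6 (10.5 and 9.28 against 1.13 and 0.473 CPM, log2 3.62, adjusted p = 0.00019) and Dusp4 (3.26 and 3.14 against 0.189 and 0.182 CPM, log2 4.08, adjusted p = 0.00014) were likewise higher, as was the feedback inhibitor Spry4 (7.14 and 1.93 CPM against 2 counts in each Dux KO library, log2 6.80, adjusted p = 0.0028). All samples grew with a MEK inhibitor.

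Among Nodal, BMP and TGF-beta genes 7 of 19 were higher and none lower (3 higher without Dux KO drug library 2). Id1, a BMP target that blocks differentiation factors, had 36.7 and 39.1 against 6.76 and 5.61 CPM (log2 2.62, adjusted p = 0.0012), and Id3 7.42 and 6.14 against 0.151 and 0.91 CPM (log2 3.66, adjusted p = 0.0061). AP-1 and immediate early genes were lower in 7 of 17 and higher in 2 (median log2 -0.82, or -0.55 without p53 KO drug library 2). Jun had 8.95 and 8.28 against 42.4 and 42.2 CPM (log2 -2.30, adjusted p = 5.2e-05) and Fos 7.98 and 8.49 against 35.4 and 33.4 CPM (log2 -2.06, adjusted p = 0.00018), while WT cells with drug had 66.5 and 76.4 CPM of Jun and 25.4 and 26.5 CPM of Fos. Fosl1, which encodes the AP-1 subunit Fra-1, had 1.39 and 0.714 against 6.95 and 8.12 CPM (log2 -2.84, adjusted p = 0.0003).

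The interferon and RNA-sensing list had 9 of 22 higher and 3 lower (median log2 1.42; 5 higher in limma on log2 FPKM). Ddx58, which encodes the RNA sensor RIG-I (chr4:40203773-40239828), stood at 43.4 and 45.5 CPM in p53 KO lines and 4.11 and 3.10 CPM in Dux KO lines (log2 3.62, SE 0.21, adjusted p = 1.8e-05). It rose with drug in p53 KO cells (log2 1.32, adjusted p = 0.0039) and fell in Dux KO cells (log2 -1.69, adjusted p = 0.00088). Oasl1, an interferon-induced regulator, had 11.5 and 6.78 against 0.679 and 0.765 CPM (log2 3.66, adjusted p = 0.00024). Isg15, a ubiquitin-like modifier, had 4.86 and 0.928 CPM against 0 and 3 counts, a ratio of 105 (35.3 to 514). Mx1, an antiviral GTPase, was lower instead at 0.416 and 0.285 against 1.51 and 1.71 CPM (log2 -2.19, adjusted p = 0.0092), as was Usp18, which removes Isg15 from proteins, at 0.278 and 0.5 against 0.944 and 1.93 CPM (log2 -1.88, adjusted p = 0.044). The list therefore held members in both directions, and WT cells with drug had 14.5 and 13.8 CPM of Ddx58.

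Parp14, a mono-ADP-ribosyltransferase of the interferon response outside the list, had 23.2 and 34.6 against 1.93 and 1.57 CPM (log2 4.05, adjusted p = 0.0002). Its drug response was upward in p53 KO (log2 2.95, adjusted p = 0.0038) and downward in Dux KO cells (log2 -1.55, adjusted p = 0.037). Ccdc190 had 13.2 and 11.6 against 0.151 and 0.218 CPM (log2 6.04, adjusted p = 2.9e-05) and the ectonucleotidase gene Entpd3 9.99 and 10.5 against 0.189 and 0.255 CPM (log2 5.50, adjusted p = 4e-05). Olfr56 had 20.2 and 9.13 against 2.604 and 2.04 CPM (log2 2.66, adjusted p = 0.00097), and its locus overlaps another gene.

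**Figure D5:**
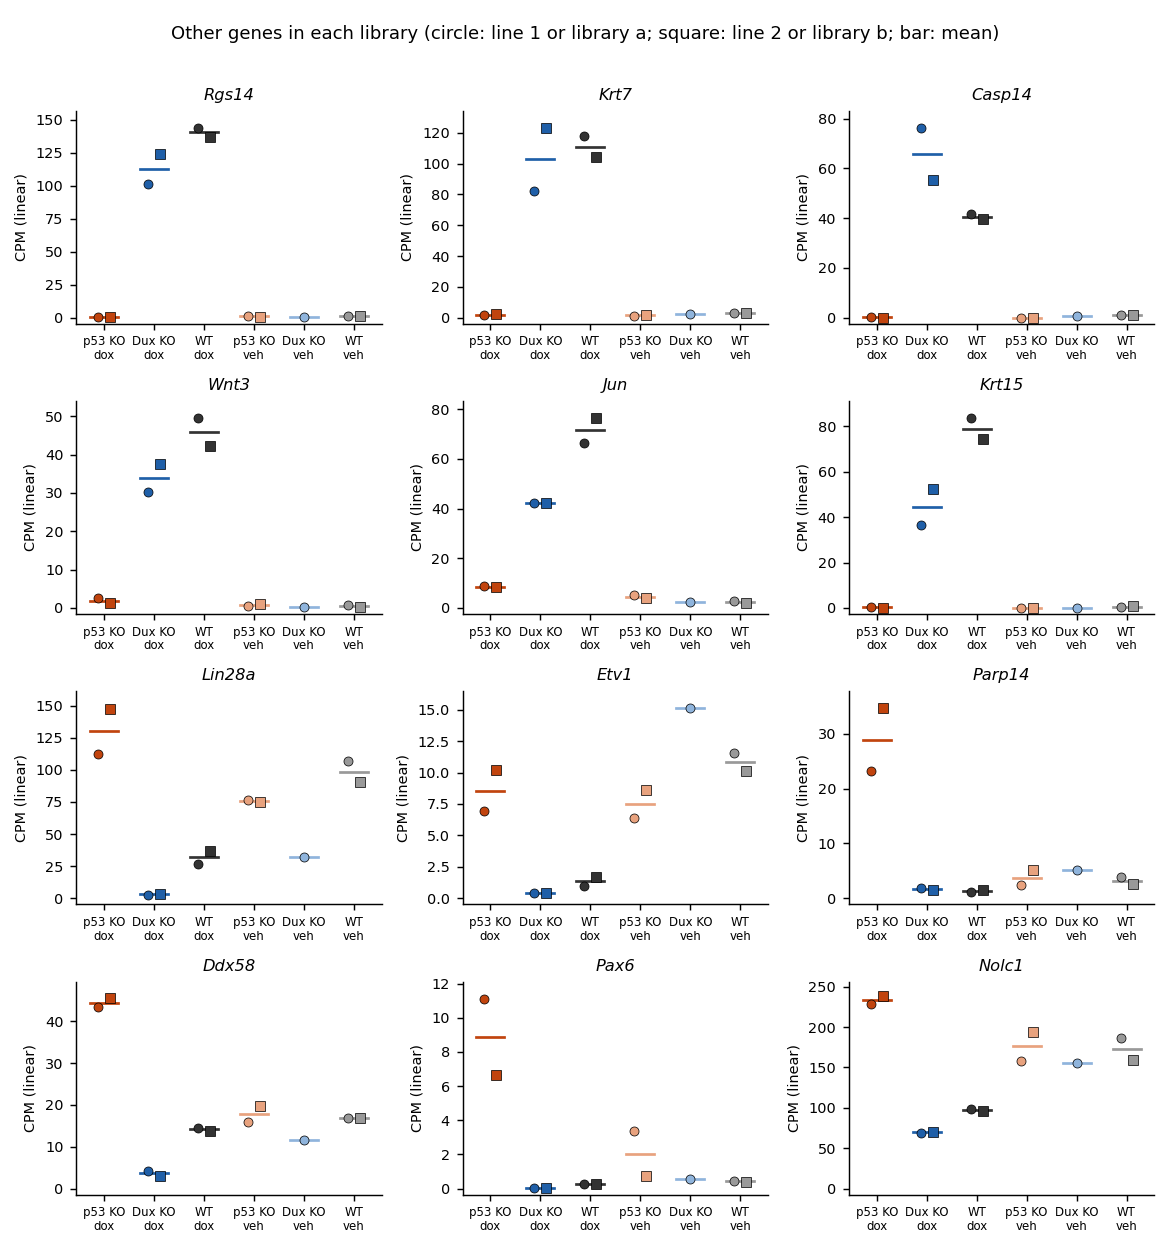
CPM (linear vertical axes) of 12 genes in all 6 groups; circles are line 1 or WT library a, squares line 2 or WT library b, bars group means. Rgs14, Krt7, Casp14, Wnt3 and Jun are high in Dux KO and WT cells with drug, and Lin28a, Etv1, Parp14 and Ddx58 are higher in p53 KO than in Dux KO cells with drug.

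Genes of the ATF4 amino-acid response were higher in 11 of 18 and lower in 1 (median log2 0.75). Chac1, which degrades glutathione, had 7.77 and 8.56 against 1.21 and 1.09 CPM (log2 2.82, adjusted p = 6.7e-05), the stress factor gene Nupr1 37.4 and 46.4 against 9.55 and 5.64 CPM (log2 2.46, adjusted p = 0.00017), and the mitochondrial folate enzyme gene Mthfd2 125 and 76.9 against 20.8 and 20.8 CPM (log2 2.28, adjusted p = 0.00027). Chac1 fell with drug in both knockouts, from 24.3 and 19.2 CPM in p53 KO and 10.1 CPM in Dux KO cells, and the responses differed (log2 1.72, adjusted p = 0.021). The lower member was Sesn2, which p53 also controls. Atf4 itself and Ddit3 were not called (log2 0.27 and -0.04).

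The BCL2 and caspase list was split, 6 higher and 4 lower of 19, where 18.3% of all genes were higher and 18.6% lower. Mcl1, the survival protein, had 172 and 195 against 771 and 748 CPM (log2 -2.05, adjusted p = 0.00012), and Bcl2l11, the death gene Bim, 15.1 and 11.7 against 45.5 and 47.5 CPM (log2 -1.80, adjusted p = 0.00017). Casp8, the caspase of death receptors, was higher at 7.63 and 8.71 against 3.15 and 2.73 CPM (log2 1.47, adjusted p = 0.0016).

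Cell-cycle and DNA repair lists are read against the all-gene shares of 18.3% higher and 18.6% lower. The G1/S list stood above the higher share, and the DNA repair list was near both. Of 25 G2/M genes 6 were higher and 2 lower, and of 30 G1/S genes 12 were higher and 2 lower (median log2 0.41). The G2/M median of 0.12 was -0.04 without p53 KO drug library 1 and 0.29 without library 2. The higher counts were 1 and 6 without Dux KO drug library 1, 3 and 6 without library 2, and 1 and 7 without p53 KO drug library 1. Ccne1, cyclin E1, had 164 and 102 against 36.8 and 33.2 CPM (log2 1.92, adjusted p = 0.00072), and Cdc6, a replication licensing factor, 88.8 and 77.9 against 40.2 and 34.8 CPM (log2 1.15, adjusted p = 0.0005). Cenpe, a mitotic motor, was lower at 84.7 and 79.5 against 154 and 144 CPM (log2 -0.86, adjusted p = 0.00056). DNA repair genes had 6 higher and 5 lower of 31; the higher count was 3 without Dux KO drug library 2 and 10 without p53 KO drug library 2. Xrcc1, the single-strand break scaffold, had 89.4 and 94.5 against 277 and 281 CPM (log2 -1.60, adjusted p = 5.9e-05) and Parp1, the break sensor, 536 and 608 against 249 and 259.6 CPM (log2 1.17, adjusted p = 0.00033), and Chek2, a checkpoint kinase, 36.8 and 27.98 against 70.8 and 79 CPM (log2 -1.21, adjusted p = 0.00058).

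Ribosome biogenesis factors were higher in 14 of 24 and lower in 1 (median log2 0.59). Nolc1, a nucleolar chaperone, had 228 and 238 against 69.3 and 70.01 CPM (log2 1.74, adjusted p = 4.5e-05), and Polr1b, a subunit of RNA polymerase I, 133 and 103 against 33.5 and 37.9 CPM (log2 1.72, adjusted p = 0.0001). Nop56 had 382 and 226 against 106 and 113 CPM (log2 1.47, adjusted p = 0.00097). Cytosolic ribosomal protein genes went the other way, 25 of 40 lower and 2 higher (median log2 -0.66). The lower count was 16 without Dux KO drug library 1, 13 with the recovered Dux KO vehicle library, and 11 in limma on log2 FPKM or 10 with no filter. Their many pseudogene copies make the counts uncertain. Rps27l, a p53 target in that family that carries a decamer pair, had 129.9 and 87.2 against 285 and 254 CPM (log2 -1.31, adjusted p = 0.001).

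Cholesterol synthesis genes were higher in 13 of 18, with none lower (median log2 0.84). Fdps, farnesyl diphosphate synthase, had 20.5 and 33.97 against 7.27 and 5.53 CPM (log2 2.09, adjusted p = 0.00037), and Idi1, which isomerises its substrate, 56.8 and 59.6 against 29.2 and 23.1 CPM (log2 1.16, adjusted p = 0.00078). In all 18 the difference was larger after drug than under vehicle, where none was higher and 2 were lower. Drug lowered 14 of the 18 in Dux KO cells (background 11.9%) and 15 with each line as a block (background 24.2%). In p53 KO cells it lowered 2, near the share of all genes (8.09%), and 6 with the block (background 12.6%). The difference in response was higher for 10 (background 2.89%), and for 14 with the block (background 11.3%).

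Glycolysis and hypoxia genes were lower in 8 of 21 and higher in 1 (median log2 -0.49). Vegfa, the angiogenic growth factor, had 51.6 and 74.9 against 218 and 190.4 CPM (log2 -1.69, adjusted p = 0.00024), and Slc2a1, the glucose transporter GLUT1, 176 and 188 against 516 and 581 CPM (log2 -1.59, adjusted p = 0.00013). WT cells with drug had 28.6 and 24.4 CPM of Vegfa, below both knockouts. Oxidative stress genes of NRF2 had 4 higher and 3 lower of 16, with Tkt, a pentose phosphate enzyme, at 531 and 558 against 253 and 251 CPM (log2 1.11, adjusted p = 9.5e-05). Replication-dependent histone genes, whose RNAs mostly lack poly(A) tails, had 4 higher and 1 lower of 22. DNA methylation genes had 5 higher and 4 lower of 17. Over all genes 18.3% were higher and 18.6% lower, and none of these last 3 lists stood far above those shares. Without Dux KO drug library 1 the last 3 lists had 3, 2 and 3 higher and 1, 0 and 1 lower members.

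Imprinted genes were lower in 10 of 22 and higher in 5; without p53 KO drug library 1 or Dux KO drug library 2 the lower count was 5. Zim1, a zinc finger gene, had 1.80 and 1.64 against 23.1 and 19.7 CPM (log2 -3.63, adjusted p = 0.00015), and Ndn, a growth suppressor, 2.77 and 3.64 against 15.6 and 15.5 CPM (log2 -2.28, adjusted p = 0.00011). Phlda2, a placental growth restrictor, was higher at 13.4 and 7.42 against 0.415 and 0.765 CPM (log2 4.13, adjusted p = 0.00043), and Nnat at 34.2 and 15.1 against 2.04 and 2.29 CPM (log2 3.51, adjusted p = 0.00095).

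Over all genes, the drug response differed between the knockouts in 2202 (7.69%): 827 with a higher and 1375 with a lower response in p53 KO. With each line as a block and recovered counts the numbers were 3039 and 2976. Without Dux KO drug library 1 they were 324 and 646, and without library 2 185 and 475. Of the 5233 genes higher after drug, 693 also had a higher response, and of the 5333 lower genes, 1294 a lower one. Over all genes the shares were 2.89% and 4.80%. Both tests use the same drug-treated knockout libraries, so this overlap is partly fixed in advance and is no independent support. Among named genes with a lower response, 0 counts in the Dux KO vehicle library were found for Gm648 (0.104 and 0.285 against 3.92 and 8.56 CPM after drug), the sugar transporter gene Slc5a4a (0.902 and 1.21 against 14.3 and 33.5 CPM), the Wnt regulator gene Amer2 (0.347 and 0.428 against 7.29 and 6.55 CPM), Ltf, lactoferrin (0.347 and 0.428 against 7.29 and 13.2 CPM), and the phosphatase gene Dusp2 (1.49 and 0.856 against 7.17 and 8.27 CPM). The size of these response differences is not given, because no fold can be set against that library. Their adjusted p-values ran from 0.0055 for Dusp2 to 0.012 for Gm648.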

How the data were processed

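Poly(A) RNA from 12 samples of E14 mouse embryonic stem cells was sequenced after NEBNext library preparation, per the labels' protocols. The authors deposited read counts per gene and FPKM values. Per the submitters' processing notes, TopHat2, DESeq and DESeq2 were used with build mm10. Tool versions, the counting program and whether it used strand are not given in the sources used here. Of 54532 gene identifiers 54495 were found in GENCODE M21. In 98.1% of 10557 genes checked, the length implied by counts and FPKM matched the whole gene span, and 79.7% to 85.4% of counts from 1 to 20 were even. The FPKM table's 6 average columns were not used.

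Counts of 11 libraries (23270358 to 56795858 per library) entered a model with 1 mean for each of 6 groups in edgeR 4.0.16 (R 4.3.3), after filterByExpr at a minimum count of 10 and with TMM factors, giving 5 residual degrees of freedom; the quasi-likelihood test was used with Benjamini-Hochberg adjustment and a threshold of 0.05. The contrasts were p53 KO against Dux KO after drug, the same under vehicle, and the difference in drug response. Alternatives used DESeq2 1.42.0, limma 3.58.1 on log2(FPKM + 1) and log2(FPKM + 0.1), other filters, replicate blocks and left-out libraries. The second Dux KO vehicle library's counts were recovered from FPKM for some of these (total 55643110). Scripts were tested on simulated data.

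Samples of a knockout with the same number are the same line, per the labels. Deviations from group means correlated at 0.434 between drug and vehicle libraries of the p53 KO lines, and at -0.0375 between p53 KO and Dux KO drug libraries of the same number, which are different lines. A block per line was therefore used for the drug responses and their difference, chosen after seeing the data.

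Members and gene lists were chosen with earlier results of these data known. Named genes were the 12 largest calls each way, the 6 largest response differences each way, up to 4 called members of each of 35 lists, and a fixed set; a part of the 174 is described, with further list members added for context after their values were seen. Results for some named genes are not reported here. A search for p53 sites around gene starts had been planned over a wider region and was done in 300-base RefSeq promoter windows instead. Figures used matplotlib 3.10.9.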

Additional observations from a re-analysis of the deposited data

Results flagged for a closer look

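The response to doxorubicin differed between the knockouts, by edgeR's quasi-likelihood test of the difference itself at an adjusted p under 0.05, for 61 of the genes described here and named by rule. Over all genes the response differed in 7.69%. Some of the 174 named genes were picked by this same test and most others by the drug comparison, which shares its libraries. The count of 61 therefore does not measure how common such differences are. The Dux KO response rests on 1 vehicle library.

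For 5 genes a group was at 0 counts, so the adjusted p is given without a size: Gm648 0.012, Slc5a4a 0.0118, Amer2 0.00649, Ltf 0.00731 and Dusp2 0.00547. Each was higher in Dux KO than in p53 KO cells after drug.

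The log2 difference in response, p53 KO minus Dux KO, was Rgs14 -10.08, Krt15 -8.39, Gm5737 -7.48, Wnt3 -6.11, Mesp2 -5.49, Krt7 -5.23, Wnt9a -4.89, Mesp1 -4.79 and Tap1 -3.55. It was further Dcxr -3.26, Jun -3.11, Zim1 -3.10, Fosl1 -3.06, Hormad1 -2.71, Ddit4 -2.70, Lpin1 -2.44, Fos -2.41 and Trp73 -2.33. Smaller negative values were Mdm2 -2.20, Ndn -1.78, Cdkn1a -1.72, Bcl2l11 -1.62, Polk -1.54, Mcl1 -1.49, Vegfa -1.48, Slc2a1 -1.33 and Xrcc1 -1.31. The smallest were Chek2 -1.08, Bax -1.04 and Zmat3 -0.84. Several of these sizes rested on few counts in the Dux KO vehicle library: 2 for Mesp1, 3 for Krt15, 6 for Gm5737, 8 for Rgs14 and 10 for Wnt3. With each line as a block and recovered counts, they were log2 -3.76, -6.92, -7.95, -9.31 and -5.49 in the same order.

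Positive values, a higher response in p53 KO cells, were Pax6 5.97, Etv1 5.33, Ccdc190 4.65, Parp14 4.50, Entpd3 4.36, Lin28a 4.21, Olfr56 4.14, Dusp6 3.84 and Oasl1 3.04. They were also Ddx58 3.02, Gbx2 2.84, Dusp4 2.63, Tcl1 2.43, Zic5 1.94, Sall4 1.82, Fdps 1.74, Chac1 1.72 and Il6st 1.72. Smaller positive values were Nupr1 1.66, Ccne1 1.58, Nolc1 1.56, Polr1b 1.41, Idi1 1.16, Tkt 1.06, Parp1 0.92 and Utf1 0.88. With each knockout line as a block, Sall4 (adjusted p = 0.091) and Bax (adjusted p = 0.063) were no longer called.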

How the results depend on the processing

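With 2 lines per knockout and 5 residual degrees of freedom, counts of calls moved between settings. Most named genes were picked as called genes, and the largest calls also for staying called without each drug library. Their share of calls and their kept directions were therefore partly set by that choice. Of 174 named genes 172 were called, 145 of them without each library in turn, and none of the called ones reversed; Nanog, not called, reversed to -0.10 without p53 KO drug library 1 and was called at 0.66 (adjusted p = 0.026) without library 2. Leaving out 1 library each gave 2626 to 5299 higher and 3529 to 5053 lower genes after drug, 433 to 436 and 740 to 805 under vehicle, and 185 to 1225 and 475 to 2294 for the difference in response. With only the libraries compared, 3454 genes were higher after drug, edgeR called 0 and 0 under vehicle (3089 at an unadjusted p under 0.05; DESeq2 called 1780 higher and 1660 lower), and the response differed for 54 and 201. DESeq2 gave 1324 and 2523 for the response. limma gave 3392 higher and 2990 lower after drug and 311 higher under vehicle on log2(FPKM + 1), 3421 and 2844 after drug on log2(FPKM + 0.1), and, with no filter, 202 higher under vehicle and 1367 and 2167 for the response. A replicate block gave 6021 and 6194 after drug, 1650 and 1788 under vehicle and 1482 and 2338 for the response; with recovered counts it gave 810 and 1618 under vehicle, and with a block per line 3039 and 2976 for the response. Genes that overlap no other gene (12575) gave 2599 and 2243, 256 and 395, and 375 and 602. The share of higher among called genes was 37.6% for the response and 33.7% under vehicle; it was 21.2% with only the compared libraries and 50.5% with the line block for the response, and 51.7% in DESeq2 under vehicle. Exact p53 decamer pairs stood in 0.0314% of lower genes. The causes of these shifts were not tested. The plain replicate block gave a shared term to line 2 of both knockouts. Those are different lines, so its larger counts are no firmer than the others.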
